A study of Mus musculus with 25 samples.

Results

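The kinesin, dynein and dynactin genes analysed here are the protein-coding mouse genes whose symbol starts with Kif followed by a digit or a c, or with Dync, together with Klc1 to Klc4, Dctn1 to Dctn6, Dynll1, Dynll2 and Dynlrb1. The rule found 62 genes among the 36528 gene IDs of the count tables: 42 kinesins, 4 kinesin light chains, 10 dynein genes and 6 dynactin genes. The RNA came from brain cells of mice aged 6 months, sorted as neurons by NeuN, a neuronal nuclear protein, or as astrocytes by Gfap, the astrocytic intermediate filament protein. P301S mice carried a transgene for human tau, the microtubule-binding protein encoded by MAPT, with the P301S mutation of inherited frontotemporal dementia, and non-Tg mice were their littermates without the transgene. There were 6 P301S neuron libraries, 8 non-Tg neuron libraries, 5 P301S astrocyte libraries and 6 non-Tg astrocyte libraries. The labels name neither the promoter that drives the transgene nor the number of animals in a library. The p-values therefore measure the spread between these samples, which may be technical.

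Kinesins and cytoplasmic dynein are motor proteins that walk along microtubules. Most kinesins move towards the plus end, outward in an axon, and cytoplasmic dynein moves back to the cell body, with the dynactin complex as its cofactor. Light chains and adaptors choose the cargo, and several kinesins serve the mitotic spindle or the cilium in place of cargo transport.

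Total counts per library ran from 1.25e+06 to 4.45e+06, so that 3 counts were worth 0.674 to 2.41 CPM (counts per 1e+06 counts of the library). The summed level of 15 neuron markers was 27696 to 49049 CPM in P301S neurons and 27071 to 48959 CPM in non-Tg neurons, against 1475 to 2312 CPM in P301S astrocytes and 1164 to 1877 CPM in non-Tg astrocytes. Most of the neuron sums was the long non-coding RNA Meg3, with means of 31305 CPM in P301S neurons and 34626.5 CPM in non-Tg neurons, and 13 of the 15 markers were higher in neurons in each genotype. Meg3 differed most, by log2 5.03 in P301S and 5.54 in non-Tg mice. The other markers differed by 0.48 to 4.63 in P301S and by 0.26 to 4.12 in non-Tg mice. Map2 averaged 880 CPM in P301S neurons and 629 CPM in P301S astrocytes. In non-Tg mice its means were 849 CPM in neurons and 442 CPM in astrocytes, so the sums overstate how far most neuron markers differed. The sum of 15 astrocyte markers was 664 to 909 and 461 to 918 CPM in the P301S and non-Tg neurons, against 15708 to 31037 and 17344 to 27668 CPM in the P301S and non-Tg astrocytes, so both sorts carried the markers of their label. Per the labels' protocols, neuron and astrocyte pellets were spun at different forces and gave very different amounts of RNA, and this cannot be told apart from cell type. P301S astrocyte libraries held 11940 to 16382 detected genes at a depth of 1e+06 counts, against 15108 to 17853 in non-Tg astrocytes, and P301S astrocytes 3 and 4 held the fewest.

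The members spanned the whole range of detection. Per unit of gene length, on the authors' deposited scale of size-factor-adjusted RPKM (reads scaled to gene length and library size), Dync1i2 was the highest member in neurons, with a median of 19.3 RPKM in P301S neurons and 19.9 RPKM in non-Tg neurons. Kif21a, a kinesin-4 that curbs microtubule growth, stood second in both, with medians of 12.1 RPKM in P301S neurons and 11.3 RPKM in non-Tg neurons. In P301S astrocytes the order was Kif1a, Kif21a and Kif1b, with medians of 21.7, 11.8 and 8.35 RPKM. In non-Tg astrocytes it was Kif21a, Kif1b and Kif1a, with medians of 11.3, 9.61 and 9.10 RPKM. Those 3 ranges overlapped in the non-Tg astrocytes, from 7.84 to 15.3 RPKM for Kif21a, 7.07 to 11.1 RPKM for Kif1b and 5.46 to 14.1 RPKM for Kif1a. In P301S astrocytes the lowest Kif1a library, at 13.6 RPKM, lay above the highest Kif1b library, at 10.9 RPKM, whereas Kif21a, at 7.32 to 20.9 RPKM, overlapped both.

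At the other end, 12 members had too few counts for any test: Kif2b, Kif2c, Kif4, Kif11, Kif12, Kif14, Kif18a, Kif18b, Kif23, Kif26a, Kifc5b and Klc3. Most of them are motors of the mitotic spindle and of cytokinesis. Kif2b was counted in 1 of the 25 libraries, with 1 read. The summed level of 12 marker genes of dividing cells was 29.0 to 44.6 CPM in P301S neurons and 42.7 to 62.7 CPM in non-Tg neurons, against 11.96 to 59.5 CPM in P301S astrocytes and 18.4 to 111 CPM in non-Tg astrocytes. The other 50 members were tested in at least 1 comparison.

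The promoters of 6 members are shown: 5 of these genes are among those that differ between cell types below, and Kif1a is the member called between genotypes. Each line gives the 250 bases before the most upstream start that the RefSeq promoter table lists for the gene (GRCm38.p6), 5′ to 3′ on the gene's strand: chr2:71211456-71211705 (plus strand), chr6:5725389-5725638 (plus), chr2:49619036-49619285 (plus), chr4:138262001-138262250 (plus), chr7:79715708-79715957 (minus) and chr1:93101875-93102124 (minus). The RefSeq gene record itself begins at the base after the window in Kif5c and Kif17. It begins inside the window in Dync1i2 (71211676), Dync1i1 (5725600), Kif7 (79715772) and Kif1a (93102039), whose windows therefore run partly into the gene. Capitals mark GTTGCC, a core of the X-box bound by RFX factors of ciliary genes, and TGACGTCA, the cyclic AMP response element.
Dync1i2: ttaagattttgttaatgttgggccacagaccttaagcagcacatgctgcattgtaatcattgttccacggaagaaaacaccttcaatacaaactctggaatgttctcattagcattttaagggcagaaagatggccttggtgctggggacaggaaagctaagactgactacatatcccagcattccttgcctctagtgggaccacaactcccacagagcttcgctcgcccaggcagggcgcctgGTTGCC
Dync1i1: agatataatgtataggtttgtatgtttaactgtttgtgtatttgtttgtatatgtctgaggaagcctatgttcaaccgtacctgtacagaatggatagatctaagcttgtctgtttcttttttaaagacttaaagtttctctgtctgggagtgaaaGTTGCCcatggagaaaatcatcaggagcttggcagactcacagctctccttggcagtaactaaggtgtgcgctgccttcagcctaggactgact
Kif5c: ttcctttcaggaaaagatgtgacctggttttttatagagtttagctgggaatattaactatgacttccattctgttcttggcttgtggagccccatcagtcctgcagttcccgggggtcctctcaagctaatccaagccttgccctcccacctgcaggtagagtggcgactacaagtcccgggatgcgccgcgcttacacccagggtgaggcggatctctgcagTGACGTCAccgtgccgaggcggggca
Kif17: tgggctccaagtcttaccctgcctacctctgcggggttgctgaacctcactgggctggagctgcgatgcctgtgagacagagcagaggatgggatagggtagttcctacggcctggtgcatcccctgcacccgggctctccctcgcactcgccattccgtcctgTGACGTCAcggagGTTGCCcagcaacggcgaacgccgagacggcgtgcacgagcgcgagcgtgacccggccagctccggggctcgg
Kif7: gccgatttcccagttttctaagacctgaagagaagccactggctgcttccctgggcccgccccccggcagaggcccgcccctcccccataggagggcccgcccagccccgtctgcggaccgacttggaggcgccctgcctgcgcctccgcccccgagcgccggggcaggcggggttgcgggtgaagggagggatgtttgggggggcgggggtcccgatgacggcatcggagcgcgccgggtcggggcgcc
Kif1a: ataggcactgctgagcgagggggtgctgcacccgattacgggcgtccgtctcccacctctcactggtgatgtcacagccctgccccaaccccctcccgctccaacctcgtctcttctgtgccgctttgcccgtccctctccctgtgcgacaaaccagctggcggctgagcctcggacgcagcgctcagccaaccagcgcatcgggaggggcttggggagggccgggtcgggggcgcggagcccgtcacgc
Counted back from the start in the promoter table, GTTGCC begins 6 bases before it in Dync1i2, 94 in Dync1i1 and 73 in Kif17. In Dync1i2 this lies inside the gene record, and in Dync1i1 it lies before it. TGACGTCA begins 26 bases before the start in Kif5c and 86 in Kif17, where it does not overlap GTTGCC. Searched on both strands, GTTGCC was present in 11 of the 47 member promoters in the table (23.4%) and in 10.5% of all 27025 promoters of the same length. TGACGTCA was present in 4 of the 47 (8.51%) and in 1.60% of all. Neither motif occurs in the windows of Kif7 and Kif1a. The windows of Kif24, Klc4 and Kif26b, which were also called between cell types in both genotypes, are not shown. That of Kif24 holds GTTGCC, and those of Klc4 and Kif26b hold neither motif.

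The comparison of neurons with astrocytes asked how the motor genes differ between the sorted cell types. In P301S mice 22 of 50 tested members (44.0%) passed an adjusted p of 0.05 in edgeR's quasi-likelihood test, 9 higher and 13 lower in neurons than in astrocytes. Of all 14197 genes tested, 52.3% passed, 23.2% higher and 29.0% lower. In non-Tg mice 20 of 50 (40.0%) passed, 9 higher and 11 lower, against 46.9% of all genes, 21.8% higher and 25.1% lower. Both shares of members lay below those of all genes. Their median log2 difference, neurons minus astrocytes, was -0.20 in P301S and -0.095 in non-Tg mice, beside -0.21 and -0.11 for all genes. The libraries of both cell types did not overlap, with neurons higher, for 5 members in P301S mice and 6 in non-Tg mice (17.0% and 15.7% of all genes). With neurons lower they did not overlap for 7 members in P301S mice and 6 in non-Tg mice (12.7% and 15.4% of all genes). 7 members were higher in neurons in both genotypes, Dync1i1, Dync1i2, Kif2a, Kif3a, Kif5a, Kif5c and Kif26b. 10 were lower in both, Dctn4, Dynlrb1, Kif1a, Kif1b, Kif7, Kif13a, Kif19a, Kif24, Kifc3 and Klc4. No member was called in opposite directions. In these bulk samples, fewer cells that express a gene and less RNA per cell cannot be told apart. Sums of 9 oligodendrocyte markers were 388 to 1302 CPM in P301S and 202 to 532 CPM in non-Tg astrocytes. In P301S and non-Tg neurons they were 68.7 to 83.5 and 41.7 to 87.5 CPM. All 6 oligodendrocyte and all 4 oligodendrocyte precursor genes tested were lower in neurons in both genotypes. Of 7 microglial and myeloid genes 0 were called. The part of such cells in the members' differences was not tested. With the number of genes detected as a covariate, 9 members and 3413 of all genes were called in P301S mice, against 22 members and 7420 genes without it. That number did not overlap between P301S neurons and P301S astrocytes, as given below, so this fit cannot tell detection from cell type.

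**Figure D1:**
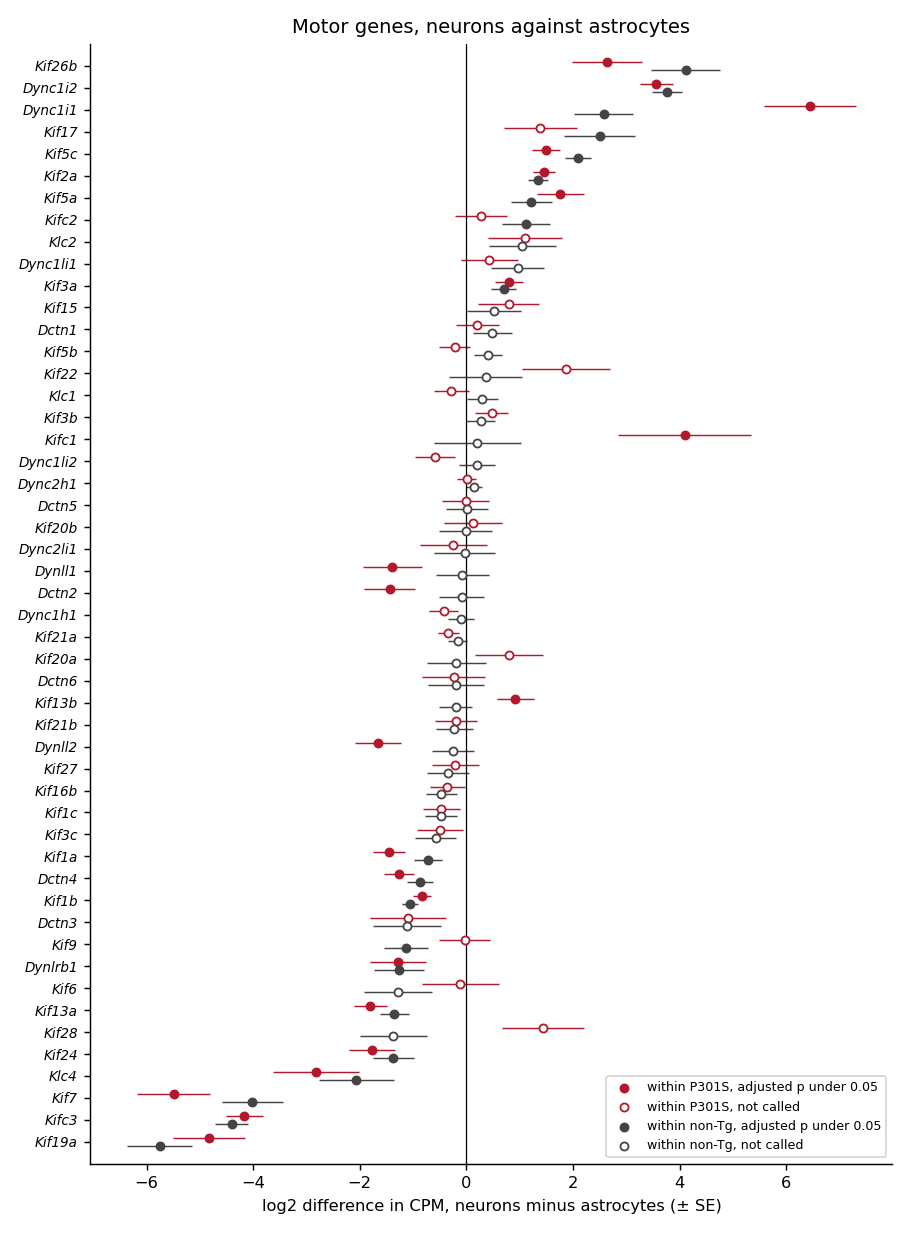
Log2 difference in CPM between neurons and astrocytes (neurons minus astrocytes, ± SE) for the 50 tested members within P301S mice (red) and within non-Tg mice (grey), with filled points for members that passed an adjusted p of 0.05. Dync1i2 lies to the right in both genotypes (3.57 and 3.76) and Kifc3 to the left in both (-4.16 and -4.40).

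Among the dynein-1 subunits, the intermediate chains, which hold the complex together and bind dynactin, were higher in neurons. Dync1i2, the more widely expressed intermediate chain, had 327 to 490 CPM (median 386) in P301S neurons, against 21.4, 39.7, 57.5, 8.31 and 38.9 CPM in P301S astrocytes. The non-Tg libraries held 319 to 449 CPM (median 390) in neurons, against 19.5 to 46.3 CPM (median 25.5) in astrocytes. Every neuron library was above every astrocyte library. The log2 difference, neurons minus astrocytes, was 3.57 ± 0.31 in P301S mice (SE, adjusted p = 2.02e-11) and 3.76 ± 0.28 in non-Tg mice (adjusted p = 5.29e-13).

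Dync1i1, the intermediate chain known to be rich in neurons, had 11.6 to 26.5 CPM (median 16.4) in P301S neurons, against 0, 0.315, 0, 0 and 0.374 CPM in P301S astrocytes. Non-Tg mice had 12.3 to 35.2 CPM (median 19.3) in neurons, against 0 to 12.3 CPM (median 2.09) in astrocytes. The non-Tg astrocytes came nearest to the neurons in library 4, and the other 5 held at most 4.01 CPM. All 5 P301S astrocyte libraries together held 2 counts, which put the pooled ratio of P301S neurons to P301S astrocytes at 119, with an exact 95% counting interval of 32.5 to 985. The fitted log2 difference was 6.45 ± 0.86 in P301S mice (adjusted p = 1.60e-07) and 2.58 ± 0.55 in non-Tg mice (adjusted p = 2.14e-04), and the P301S value depends on the prior count.

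The motor subunit itself did not separate the sorts. Dync1h1, the dynein-1 heavy chain, had 234 to 456 CPM (median 307) in P301S neurons, against 556, 260.1, 695, 275 and 388 CPM in P301S astrocytes. In non-Tg mice it had 156 to 501 CPM (median 252) in neurons and 213 to 436 CPM (median 303) in astrocytes. The libraries overlapped in both genotypes, with log2 differences of -0.43 ± 0.27 in P301S (adjusted p = 0.183) and -0.10 ± 0.24 in non-Tg mice (adjusted p = 0.764; 0.084 with RLE size factors). Dync1li1 and Dync1li2, the light intermediate chains that bind cargo adaptors, and Dync2h1 and Dync2li1, the dynein-2 subunits of retrograde transport in cilia, were not called in either genotype. Of the light chains shared with other complexes, Dynlrb1 was lower in neurons in both, with log2 differences of -1.29 ± 0.52 in P301S (adjusted p = 0.0389) and -1.26 ± 0.47 in non-Tg mice (adjusted p = 0.0263). Its level was 6.28 to 14.5 CPM in P301S neurons, against 9.01, 18.3, 8.97, 3.78 and 78.9 CPM in P301S astrocytes. Only the fifth P301S astrocyte was far above the neurons, and without it the difference in P301S mice was -0.052 (adjusted p = 0.930).

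**Figure D2:**
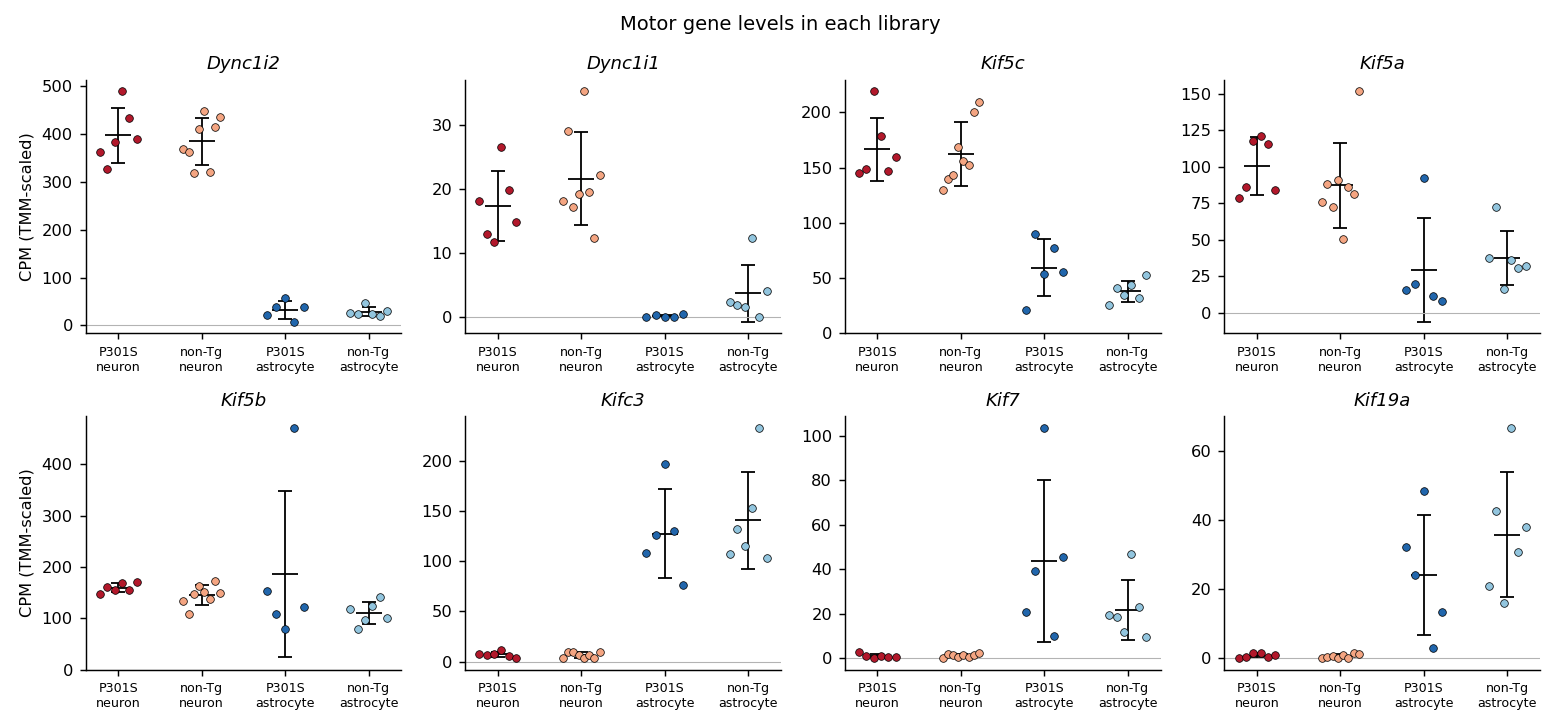
CPM of 8 members in every library, with P301S neurons, non-Tg neurons, P301S astrocytes and non-Tg astrocytes from left to right; bars give mean ± SD. Dync1i2, Dync1i1 and Kif5c sit higher in both neuron groups, Kifc3, Kif7 and Kif19a sit higher in both astrocyte groups, and P301S astrocyte 4 stands at 471 CPM in the Kif5b panel.

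The kinesin-1 heavy chains, the main motors of fast outward axonal transport, split by gene. Kif5c had 145 to 220 CPM (median 154) in P301S neurons, against 21.1, 89.4, 53.8, 77.0 and 55.4 CPM in P301S astrocytes. The non-Tg libraries held 130 to 209 CPM (median 154) in neurons, against 25.3 to 52.2 CPM (median 37.3) in astrocytes. No neuron library of Kif5c reached down to an astrocyte library, and the log2 difference was 1.49 ± 0.27 in P301S (adjusted p = 2.32e-05) and 2.10 ± 0.25 in non-Tg mice (adjusted p = 1.56e-08). Kif5a, the heavy chain mutated in hereditary spastic paraplegia, had 78.4 to 121 CPM (median 101) in P301S neurons, against 15.8, 19.5, 92.7, 11.3 and 8.23 CPM in P301S astrocytes. Non-Tg mice had 50.7 to 152 CPM (median 84.1) in neurons, against 16.5 to 72.6 CPM (median 33.9) in astrocytes. P301S astrocyte 3 alone lay inside the range of the P301S neurons, and the log2 differences were 1.76 ± 0.44 (adjusted p = 0.00121) in P301S and 1.22 ± 0.39 (adjusted p = 0.00984) in non-Tg mice.

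Kif5b, the heavy chain expressed in most tissues, was not called in either genotype in the fit of all 25 libraries. It had 148 to 170 CPM (median 159) in P301S neurons, against 154, 108, 78.5, 471 and 123 CPM in P301S astrocytes. In non-Tg mice it had 109 to 173 CPM (median 148) in neurons and 79.6 to 141 CPM (median 110) in astrocytes. The log2 difference was -0.22 ± 0.29 in P301S mice (adjusted p = 0.548) and 0.40 ± 0.26 in non-Tg mice (adjusted p = 0.219). In non-Tg mice it was called with voom (0.48, adjusted p = 0.0134), with the number of genes detected as a covariate (0.75, adjusted p = 0.0193) and in a fit of that genotype alone (0.39, adjusted p = 0.0487). Without P301S astrocyte 4, the highest library, the difference in P301S mice turned to 0.47 (adjusted p = 0.0588). As a share of the summed RPKM of the 3 heavy chains, Kif5b made up a median of 42.0% in P301S neurons and 41.6% in non-Tg neurons, against 68.8% in P301S astrocytes beside 66.5% in non-Tg astrocytes. Kif5c made up 36.8% in P301S neurons and 39.5% in non-Tg neurons, against 23.3% and 20.1% in P301S and non-Tg astrocytes.

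Among the light chains, which link kinesin-1 to its cargo, Klc4 was lower in neurons. It had 0 to 2.54 CPM (median 1.08) in P301S neurons, against 4.22, 0.630, 13.4, 0 and 27.3 CPM in P301S astrocytes. The non-Tg libraries held 0.534 to 2.67 CPM (median 1.24) in neurons, against 2.85 to 8.44 CPM (median 5.70) in astrocytes. The non-Tg groups did not overlap, and the P301S astrocytes ran from 0 to the highest level of all. The log2 differences were -2.81 ± 0.81 (adjusted p = 0.00394) in P301S and -2.07 ± 0.70 (adjusted p = 0.0153) in non-Tg mice. Klc1, the light chain known to be abundant in neurons, was not called, and its RPKM was the largest of the 4 light chains by median share in all 4 groups, at 69.6% in P301S neurons, 71.4% in non-Tg neurons, 55.3% in P301S astrocytes beside 58.3% in non-Tg astrocytes.

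**Figure D3:**
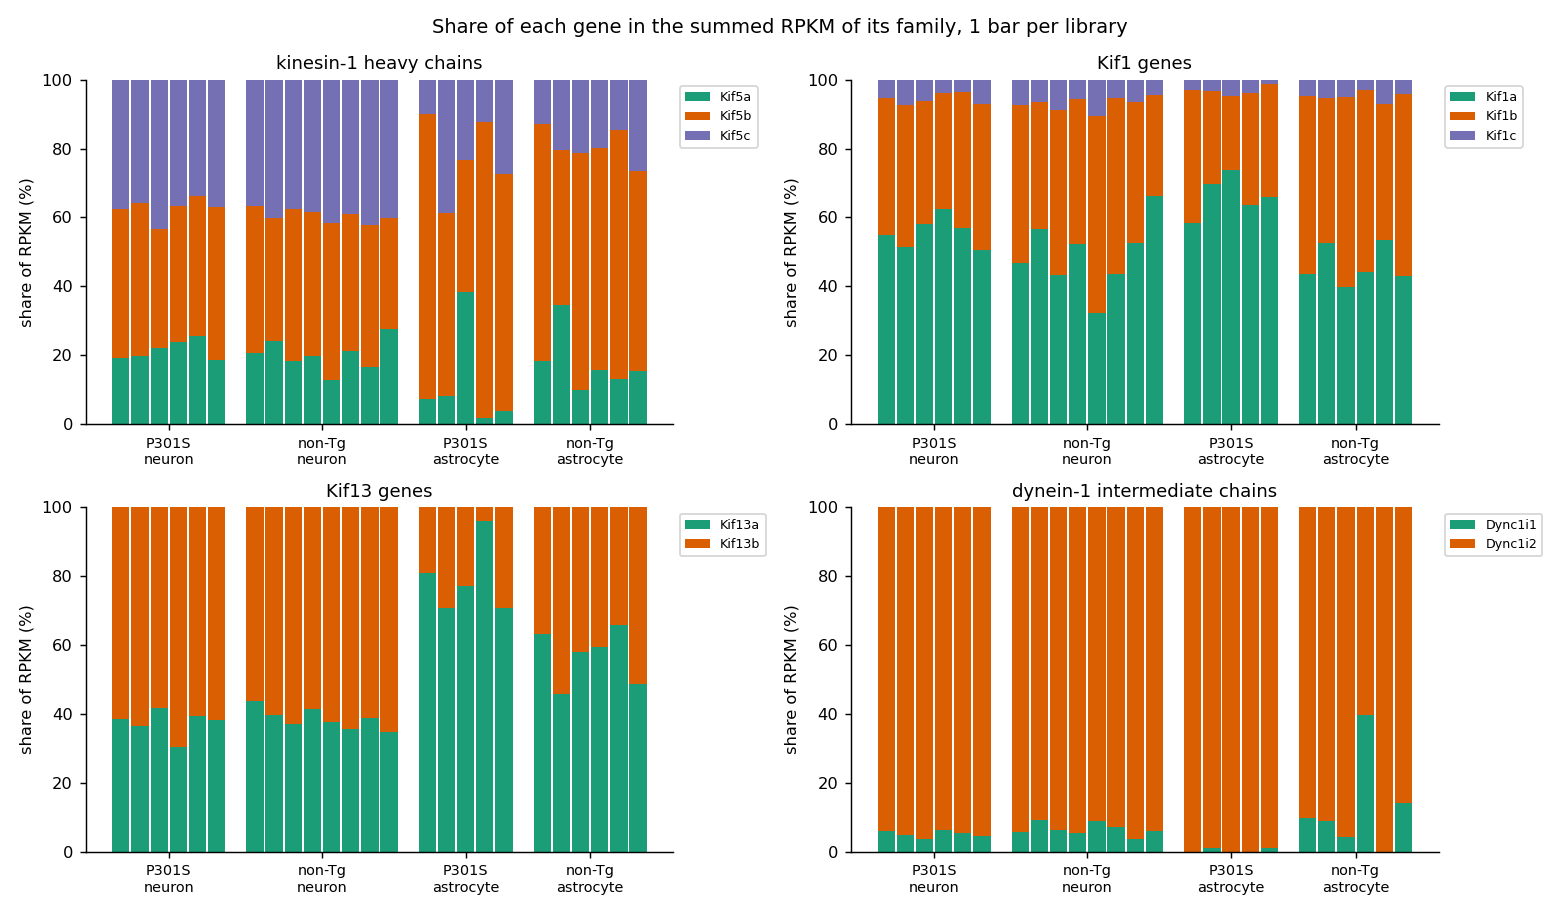
Share of each gene in the summed RPKM of its family, in percent, with 1 bar per library and the groups in the order P301S neurons, non-Tg neurons, P301S astrocytes and non-Tg astrocytes. The Kif1a share of the Kif1 genes is 58.3% to 73.8% in P301S astrocytes and 39.8% to 53.4% in non-Tg astrocytes, and Dync1i2 makes up 98.8% or more of the intermediate chains in each P301S astrocyte library.

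Outside kinesin-1, Kif26b, Kif2a and Kif3a were higher in neurons in both genotypes. Kif26b, a kinesin-11 that acts in Wnt5a signalling without motor activity, had 13.4 to 24.7 CPM (median 16.6) in P301S neurons, against 4.22, 2.20, 6.72, 0 and 0 CPM in P301S astrocytes. Non-Tg mice had 11.7 to 30.6 CPM (median 21.6) in neurons, against 0 to 3.80 CPM (median 0.827) in astrocytes. The sorts did not overlap, with log2 differences of 2.64 ± 0.65 in P301S (adjusted p = 0.00103) and 4.11 ± 0.65 in non-Tg mice (adjusted p = 2.74e-06). Kif2a, which takes microtubule ends apart and limits the growth of axon branches, had 147 to 187 CPM (median 163) in P301S neurons, against 49.3, 64.2, 54.9, 49.1 and 80.8 CPM in P301S astrocytes. Its log2 differences were 1.46 ± 0.21 in P301S (adjusted p = 7.85e-07) and 1.35 ± 0.19 in non-Tg mice (adjusted p = 3.98e-07), again with no overlap. Kif3a, the kinesin-2 subunit needed to build cilia, differed by 0.80 ± 0.26 (adjusted p = 0.0107) in P301S and 0.70 ± 0.23 (adjusted p = 0.0134) in non-Tg mice.

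Kif17, a kinesin-2 that carries NMDA receptors in dendrites, had 7.63 to 15.5 CPM (median 10.1) in P301S neurons, against 15.2, 2.20, 1.49, 0.755 and 0 CPM in P301S astrocytes. In non-Tg mice it had 4.27 to 20.4 CPM (median 6.52) in neurons, against 0.335 to 2.85 CPM (median 1.32) in astrocytes. P301S astrocyte 1 lay inside the range of the P301S neurons, while the non-Tg groups did not overlap. The log2 difference was 1.38 ± 0.68 in P301S mice (adjusted p = 0.0881) and 2.50 ± 0.67 in non-Tg mice (adjusted p = 0.00235). In P301S mice it was 3.16 without P301S astrocyte 1 (adjusted p = 2.86e-04) and 1.55 with DESeq2 (adjusted p = 0.0322), but -1.14 with the number of genes detected as a covariate (adjusted p = 0.397). The non-Tg call was lost with that covariate (1.28, adjusted p = 0.128). How closely the covariate follows cell type is given below. An exon of Kif17 overlaps the gene Sh2d5 on the same strand in the GENCODE M21 annotation, so that reads there may belong to either gene.

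The largest differences below zero belonged to 3 kinesins. Kifc3, a minus-end kinesin known from apical transport and cell junctions of epithelia, had 3.47 to 11.3 CPM (median 7.01) in P301S neurons, against 109, 126, 197, 129.9 and 76.7 CPM in P301S astrocytes. The non-Tg libraries held 3.33 to 9.52 CPM (median 6.51) in neurons, against 103 to 233 CPM (median 124) in astrocytes. All astrocyte libraries were above all neuron libraries, with log2 differences of -4.16 ± 0.35 in P301S (adjusted p = 1.57e-11) and -4.40 ± 0.31 in non-Tg mice (adjusted p = 1.53e-13). Kif7, the kinesin-4 that organises the tip of the cilium in Hedgehog signalling, had 0 to 2.82 CPM (median 0.702) in P301S neurons, against 20.6, 39.1, 103, 9.82 and 45.3 CPM in P301S astrocytes. Non-Tg mice had 0 to 2.28 CPM (median 1.40) in neurons, against 9.37 to 46.8 CPM (median 19.1) in astrocytes. The log2 differences of Kif7 were -5.49 ± 0.69 in P301S (adjusted p = 4.76e-08) and -4.01 ± 0.57 in non-Tg mice (adjusted p = 3.80e-07), with no overlap.

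Kif19a, a kinesin-8 that limits the length of motile cilia, had 0 to 1.45 CPM (median 0.672) in P301S neurons, against 32.1, 23.9, 48.2, 3.02 and 13.5 CPM in P301S astrocytes. In non-Tg mice it had 0 to 1.37 CPM (median 0.582) in neurons, against 15.95 to 66.5 CPM (median 34.2) in astrocytes. The astrocyte libraries were again all above the neurons, P301S astrocyte 4 by the smallest margin. The log2 differences were -4.82 ± 0.67 in P301S (adjusted p = 3.57e-07) and -5.76 ± 0.61 in non-Tg mice (adjusted p = 1.52e-09). Of 10 ependymal and motile cilia markers in the files, 5 were tested between cell types. Cfap43 was lower in neurons in both genotypes, by -4.08 in P301S (adjusted p = 5.44e-07) and -4.58 in non-Tg mice (adjusted p = 6.09e-09). Spag16 was also lower, by -2.26 in P301S (adjusted p = 0.0174) and -3.99 in non-Tg mice (adjusted p = 1.67e-05). Dnah9 was higher in neurons, by 1.40 in P301S (adjusted p = 0.00706) and 1.85 in non-Tg mice (adjusted p = 1.96e-04), and Dnah5 and Rsph4a were not called. Foxj1, Ccdc153 and Tmem212 were at 0 in P301S neurons. The summed level of the 10 was 120 to 146 CPM in P301S neurons and 116 to 174 CPM in non-Tg neurons, against 101 to 194 CPM in P301S astrocytes and 58.3 to 303 CPM in non-Tg astrocytes, and Dnah9, at a mean of 105 CPM in P301S neurons and 111 CPM in non-Tg neurons, made up most of the neuron sums. The part of these genes in the Kif19a result was not tested. Exons of Kifc3 overlap antisense genes and those of Kif7 overlap Ticrr on the opposite strand, and the strand of the counting is not given.

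Kif24, Kif1b and Kif13a were lower in neurons by smaller amounts. Kif24, which shortens microtubules at the mother centriole, had 4.78 to 14.04 CPM (median 7.72) in P301S neurons, against 10.98, 38.7, 27.6, 33.2 and 38.9 CPM in P301S astrocytes. The non-Tg libraries held 7.43 to 11.6 CPM (median 9.42) in neurons, against 5.91 to 46.9 CPM (median 22.3) in astrocytes. The sorts overlapped in both genotypes, with log2 differences of -1.76 ± 0.43 in P301S (adjusted p = 8.93e-04) and -1.37 ± 0.38 in non-Tg mice (adjusted p = 0.00309). Kif1b, which carries mitochondria and synaptic vesicle precursors, had 377 to 555 CPM (median 466) in P301S neurons, against 855, 775, 724, 729 and 1054 CPM in P301S astrocytes. Its log2 differences were -0.83 ± 0.16 in P301S (adjusted p = 6.77e-05) and -1.06 ± 0.14 in non-Tg mice (adjusted p = 2.30e-07), and no neuron library reached an astrocyte library. Kif13a, a kinesin-3 of recycling endosomes, differed by -1.80 ± 0.32 in P301S (adjusted p = 1.55e-05) and by -1.35 ± 0.28 in non-Tg mice (adjusted p = 1.38e-04), also without overlap. Of dynactin, Dctn4, a subunit of the pointed end, was lower in neurons by -1.26 ± 0.27 (adjusted p = 2.32e-04) in P301S and by -0.87 ± 0.24 (adjusted p = 0.00321) in non-Tg mice. Dctn1, the large subunit that binds microtubules and dynein, had 23.8 to 59.5 CPM (median 45.7) in P301S neurons, against 32.7, 59.5, 22.4, 57.4 and 13.8 CPM in P301S astrocytes. In non-Tg mice Dctn1 had 24.7 to 120 CPM (median 33.1) in neurons and 19.7 to 45.3 CPM (median 31.9) in astrocytes, and it was not called in either genotype.

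8 further members were called in 1 genotype, which does not show that the genotypes differ. In P301S mice Dctn2, Dynll1 and Dynll2 were lower in neurons, by -1.44 ± 0.47 (adjusted p = 0.0113), -1.39 ± 0.55 (adjusted p = 0.0333) and -1.66 ± 0.43 (adjusted p = 0.00170), and Kif13b and Kifc1 were higher. Kif13b, a kinesin-3 that binds phosphoinositides, differed by 0.92 ± 0.35 (adjusted p = 0.0276). Kifc1, a spindle kinesin, was counted 2 times in all P301S astrocytes and 40 times in P301S neurons, and its pooled ratio was 20.3 with an exact 95% counting interval of 5.26 to 173. Kifc5b is a near-identical copy of Kifc1, and the counts are of uniquely aligned reads, so reads that match both genes may be missing from both. In non-Tg mice Kif17, above, and Kifc2, a C-terminal motor of neurons, were higher by 2.50 and by 1.12 ± 0.45 (adjusted p = 0.0414), and Kif9, known from motile cilia, was lower by -1.13 ± 0.42 (adjusted p = 0.0260).

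Under the covariate of detected genes, 13 of the 22 members called in P301S mice lost their call. P301S neuron libraries held 17815 to 18444 detected genes at the depth given above, against 11940 to 16382 in P301S astrocytes, without overlap. In non-Tg mice the ranges were 17586 to 18741 in neurons and 15108 to 17853 in astrocytes. The covariate thus largely follows cell type, and a lost call cannot tell detection from cell type. Among the members called in both genotypes, Kif26b came to 1.23 (adjusted p = 0.562), Kif3a to 0.36 (adjusted p = 0.663) and Kif5a to 2.08 (adjusted p = 0.133). Dctn4 came to -0.63 (adjusted p = 0.371), Kif24 to -0.92 (adjusted p = 0.474), Kif1a to -1.33 (adjusted p = 0.0942), Klc4 to -4.16 (adjusted p = 0.0655) and Dynlrb1 to -1.65 (adjusted p = 0.335). Of the members called in P301S mice alone, Kif13b came to 0.0020 (adjusted p = 0.999), and Kifc1, with an adjusted p of 0.980, turned to -0.19. Dctn2, Dynll1 and Dynll2 came to -2.29, -2.23 and -2.09, with adjusted p of 0.0561, 0.145 and 0.0615. In non-Tg mice the covariate ended the calls of Kif3a (0.57, adjusted p = 0.0854), Kifc2 (0.68, adjusted p = 0.339), Dynlrb1 (-1.40, adjusted p = 0.0658), Kif1a and Kif17. With voom, Kif3a (adjusted p = 0.0532), Kif13b (adjusted p = 0.0606), Klc4 (adjusted p = 0.0986), Kifc1 (adjusted p = 0.144), Dynll1 (adjusted p = 0.269) and Dynlrb1 (adjusted p = 0.425) were not called in P301S mice. A fit of P301S mice alone did not call Kif13b (adjusted p = 0.144), Dynll1 (adjusted p = 0.132) or Dynlrb1 (adjusted p = 0.125).

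Several of these calls turned on 1 library. Without P301S astrocyte 3 the difference of Dctn2 was -0.96 (adjusted p = 0.0812), and that of Kif13b was 0.75 (adjusted p = 0.0664; 0.70 without P301S astrocyte 4, adjusted p = 0.0552). Without P301S astrocyte 2 the difference of Dynll1 was -0.10 (adjusted p = 0.869), and its call was also lost without P301S neuron 1, 2, 3, 4 or 6. Kifc2 came to 0.74 without non-Tg neuron 8 (adjusted p = 0.152), and its call was also lost without non-Tg neuron 2 or non-Tg astrocyte 3, 5 or 6. Kif9 lost its call without non-Tg astrocyte 2 or 6 or non-Tg neuron 3 or 5, with adjusted p up to 0.0851. Dynlrb1 lost its call in P301S mice also without P301S neuron 1, 2, 3, 5 or 6, and in non-Tg mice without non-Tg astrocyte 2 or 4 or non-Tg neuron 3 or 5, where adjusted p reached 0.127.

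The comparison of genotypes within astrocytes asked which motor genes change with the P301S transgene. 1 of 43 tested members was called, against 0.544% of all 12130 genes, and this member, Kif1a, was higher in P301S astrocytes. Kif1a, the kinesin-3 that carries synaptic vesicle precursors and dense-core vesicles, had 740.2, 1154, 1440, 812 and 1211 CPM in P301S astrocytes, against 287 to 746 CPM (median 501) in non-Tg astrocytes. The groups overlapped by a single pair of libraries, P301S astrocyte 1 and non-Tg astrocyte 5. The means were 1071 ± 291 CPM in P301S astrocytes (SD, n = 5) and 488 ± 171 CPM in non-Tg astrocytes (SD, n = 6), a log2 change of 1.12 ± 0.25 in edgeR's test across all genes (SE, adjusted p = 0.0461), with 5 of 5 P301S libraries above the non-Tg mean.

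The call of Kif1a sat close to the threshold. It was lost in 10 of 20 alternatives, whose adjusted p ran from 0.00153 to 0.995 and whose log2 change stayed between 0.71 and 1.28. The call was lost without P301S astrocyte 2, 3 or 5 or without non-Tg astrocyte 1, 2, 3, 4 or 6, with adjusted p up to 0.133. With the number of genes detected as a covariate the change was 0.71 (adjusted p = 0.995), and without P301S astrocytes 3 and 4 it was 1.06 (adjusted p = 0.0840). Several library properties moved with genotype: the mitochondrial share of counts was 3.61% to 11.4% in P301S astrocytes and 2.31% to 5.66% in non-Tg astrocytes, beside the difference in detected genes given above. RNA of Gfap, by whose protein the astrocytes were sorted, averaged 953 ± 163 CPM in P301S and 202 ± 105 CPM in non-Tg astrocytes (SD). Its log2 change was 2.22 ± 0.30 in edgeR's test (SE, adjusted p = 5.12e-04). Of the 15 astrocyte markers tested, edgeR and voom called Gfap alone, with 8 changes in edgeR above 0 and 7 below. DESeq2 also called Aldh1l1 higher in P301S astrocytes, whose log2 change in edgeR was 1.59 ± 0.41 (adjusted p = 0.0806). The 15 neuron markers, none of them at 0, summed to 1475 to 2312 CPM in P301S astrocytes and 1164 to 1877 CPM in non-Tg astrocytes, and 0 of the 14 tested were called. Meg3 alone averaged 957 ± 179 CPM in P301S astrocytes (SD, n = 5) and 743.5 ± 261 CPM in non-Tg astrocytes (n = 6). Sums of 9 oligodendrocyte markers were 388 to 1302 CPM in P301S astrocytes and 202 to 532 CPM in non-Tg astrocytes, and sums of 6 oligodendrocyte precursor markers were 39.3 to 492 CPM in P301S astrocytes and 83.0 to 163 CPM in non-Tg astrocytes. Of these 2 lists edgeR tested 7 and 4 genes and called 0. DESeq2 called Mbp, Mobp and Olig2 higher in P301S astrocytes, and voom called Olig2 higher. The part of these properties in the Kif1a result was not tested.

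Kif1a also set its astrocyte level apart from its neuron level. In neurons it had 297 to 526 CPM (median 358) in P301S and 139 to 635 CPM (median 273) in non-Tg libraries. Every P301S astrocyte was above every P301S neuron, and the difference, neurons minus astrocytes, was -1.45 ± 0.30 in P301S (adjusted p = 1.25e-04). In non-Tg mice it was -0.72 ± 0.26 (adjusted p = 0.0240), and this call was lost with RLE size factors (-0.54, adjusted p = 0.0862) and in 10 further alternatives, among them those without non-Tg astrocyte 1, 2 or 5 or non-Tg neuron 3, 5 or 6. Kif1a made up a median of 65.9% of the summed RPKM of Kif1a, Kif1b and Kif1c in P301S astrocytes, against 43.9% in non-Tg astrocytes. Kif1b had a log2 change of -0.087 ± 0.20 between the genotypes of the astrocytes, and Kif1c one of -0.016 ± 0.46.

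**Figure D4:**
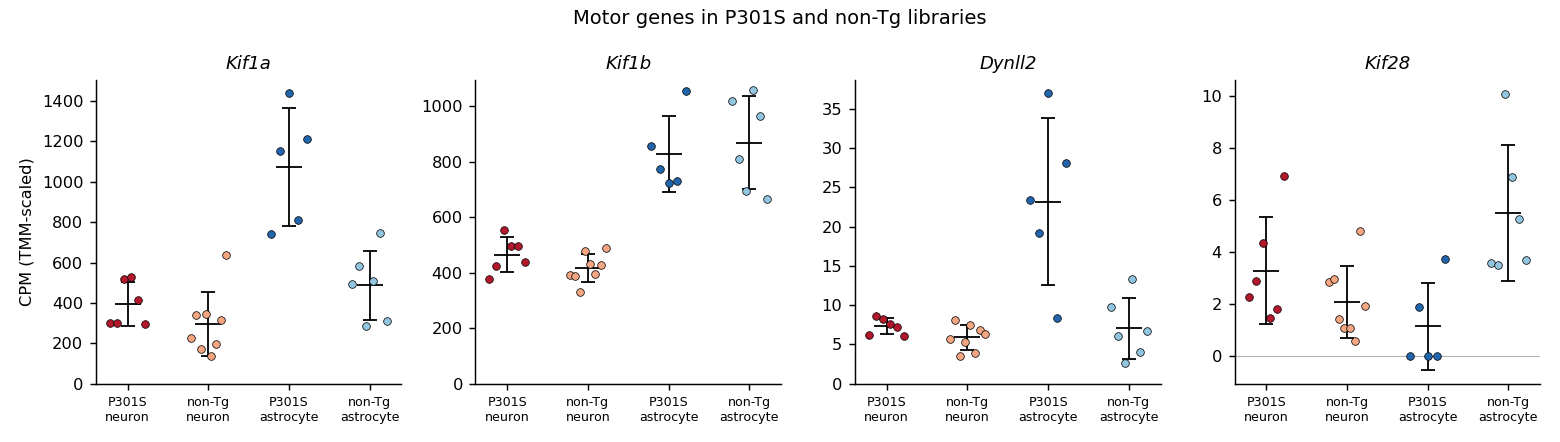
CPM of Kif1a, Kif1b, Dynll2 and Kif28 in every library, with P301S neurons, non-Tg neurons, P301S astrocytes and non-Tg astrocytes from left to right; bars give mean ± SD. Kif1a reaches 740.2 to 1440 CPM in P301S astrocytes and 287 to 746 CPM in non-Tg astrocytes, whereas Kif1b has similar ranges in both.

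The other 42 tested members were not called in astrocytes, and 2 of them had an unadjusted p under 0.05, a value that 13.4% of all genes reached. Dynll2, a light chain of dynein and myosin V, had 23.4, 19.2, 37.0, 8.31 and 28.0 CPM in P301S astrocytes, against 2.66 to 13.3 CPM (median 6.36) in non-Tg astrocytes. P301S astrocyte 4 alone lay within the non-Tg range, and the log2 change was 1.69 ± 0.64 (adjusted p = 0.241; 0.0108 when all 25 libraries were fitted together). Kif28, a kinesin close to the kinesin-3 family, had 0, 1.89, 0, 0 and 3.74 CPM in P301S astrocytes, against 3.49 to 10.1 CPM (median 4.46) in non-Tg astrocytes. 3 P301S libraries had no count of Kif28, and its log2 change was -2.22 ± 1.05 (adjusted p = 0.366). Exons of Kif28 overlap Ahctf1 on the same strand. Dync1i1 was too low in astrocytes for the genotype test: it had 2 counts pooled over P301S astrocytes, against 53 over the non-Tg libraries, a ratio of 0.0466 with an exact 95% counting interval of 0.00551 to 0.177. Of those 53 counts 25 came from non-Tg astrocyte 4. Kifc1, likewise too low for the test, had 2 counts over P301S astrocytes and 51 over non-Tg astrocytes, 29 of them in non-Tg astrocyte 1. Its ratio was 0.0485, with an exact 95% counting interval of 0.00572 to 0.184. Kif26b and Klc3, also untested there, went the other way, with 40 against 20 and 61 against 29 counts.

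The median log2 change in astrocytes was 0.13 over the 43 tested members and 0.13 over all genes. The median absolute change was 0.40 over the members and 0.57 over all genes, and 25 of the members had a positive and 18 a negative value. Kinesin-1 heavy chains had changes of -0.36 ± 0.60 for Kif5a, 0.75 ± 0.38 for Kif5b and 0.63 ± 0.42 for Kif5c, none of which was called. Dync1h1 had a log2 change of 0.47 ± 0.28 (adjusted p = 0.463) and Dctn1 one of 0.19 ± 0.48 (adjusted p = 0.900). With the number of genes detected as a covariate, Kif5b and Kif5c came to -0.089 and -0.18.

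**Figure D5:**
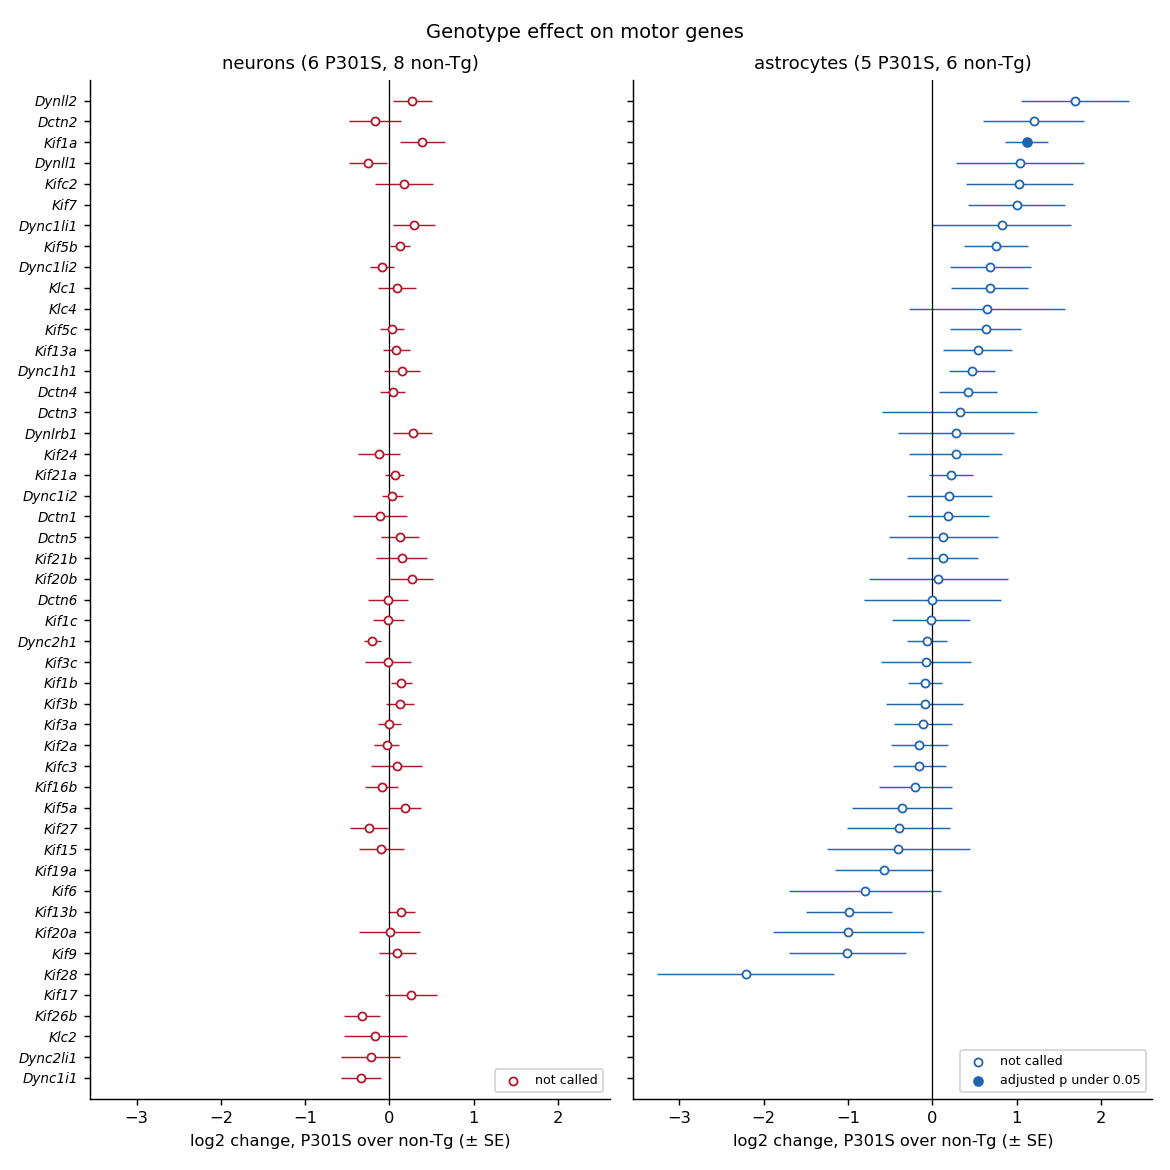
Log2 change, P301S over non-Tg (± SE), of the tested members in neurons (left, 42 members) and astrocytes (right, 43 members), with a filled point for an adjusted p under 0.05. Values in neurons lie between -0.34 and 0.39, and Kif1a in astrocytes, at 1.12, is the filled point.

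In neurons the same question gave no call. Of 42 tested members 0 were called by edgeR, DESeq2 or voom, and 0 had an unadjusted p under 0.05 in edgeR, while 0.00913% of all 10951 genes were called and 7.73% had an unadjusted p under 0.05. The log2 changes of the members ran from -0.34 to 0.39. The median change was 0.036 over the members and -0.024 over all genes, and the median absolute change was 0.13 over the members and 0.17 over all genes. For each member the P301S and the non-Tg neuron libraries overlapped, whereas those of 0.21% of all genes did not.

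The member with the smallest p in neurons was Dync2h1, the heavy chain of the ciliary dynein-2. It had 267 to 324 CPM (median 279) in P301S neurons, against 291 to 398 CPM (median 323) in non-Tg neurons. The P301S libraries lay in the lower part of the combined range, and the log2 change was -0.20 ± 0.10 (adjusted p = 0.683). Kif26b, described above, had a log2 change of -0.32 ± 0.21 (adjusted p = 0.770) and Kif1a one of 0.39 ± 0.27 (adjusted p = 0.777). Kif5a, Kif5b and Kif5c had log2 changes of 0.19 ± 0.19, 0.13 ± 0.12 and 0.026 ± 0.14. The log2 change was -0.34 ± 0.24 for Dync1i1 (adjusted p = 0.781), Dync1h1 gave 0.15 ± 0.21 (adjusted p = 0.902) and Dctn1 gave -0.11 ± 0.32 (adjusted p = 0.957). The value for Dctn1 was 0.32 without non-Tg neuron 8, whose 120 CPM stood above the 24.7 to 45.1 CPM of the other 7 non-Tg libraries.

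Whether the genotype effect differed between the cell types was tested directly. Of 50 members 0 were called by edgeR and voom and 1 by DESeq2, against 0.394% of all 14197 genes in edgeR, and 6 members had an unadjusted p under 0.05, which 14.8% of all genes reached. The smallest p belonged to Dync1i1, with a genotype effect in astrocytes minus that in neurons of -3.87 ± 1.01 (adjusted p = 0.0618). It was called by DESeq2 (-4.06, adjusted p = 0.0215) and without P301S astrocyte 2, P301S astrocyte 5 or non-Tg astrocyte 5, where adjusted p lay between 0.0265 and 0.0489. Over all its alternatives adjusted p ran from 0.0215 to 0.623, and its fitted value rests on the 2 counts in P301S astrocytes given above. Kif28 had a difference of -2.81 ± 0.998 (adjusted p = 0.160). For Kif1a the difference between the cell types was 0.73 ± 0.40 (adjusted p = 0.397), so the genotype effect on Kif1a was not shown to be larger in astrocytes than in neurons.

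Genes that work with the motors were read in the same way, from lists chosen with earlier results known. Of 48 adaptors and regulators of kinesin and dynein, 39 were tested in astrocytes and 40 in neurons, and edgeR called 0 between genotypes in either. An unadjusted p under 0.05 was reached by 6 in astrocytes and 1 in neurons, beside 13.4% and 7.73% of all genes. In astrocytes 32 of the 39 changes were positive, with a median log2 change of 0.40. Of all 12130 genes 6881 were positive, with a median of 0.13. DESeq2 and voom each called 1 in astrocytes, Map7d1, which binds microtubules, and 0 in neurons. Between cell types, 11 of 42 tested were higher and 15 lower in neurons in P301S mice, where 23.2% of all genes were higher and 29.0% lower. In non-Tg mice 11 were higher and 8 lower, beside 21.8% and 25.1% of all genes. Hook1, a dynein adaptor, averaged 336 ± 27.1 CPM in P301S neurons (SD, n = 6) and 44.2 ± 55.7 CPM in P301S astrocytes (n = 5), a log2 difference of 2.94 ± 0.55. In non-Tg mice Hook1 averaged 329 ± 22.2 CPM in neurons (n = 8) and 16.1 ± 7.03 CPM in astrocytes (n = 6), a log2 difference of 4.35 ± 0.54. Hap1, the huntingtin-associated adaptor of kinesin-1 and dynactin, was higher in neurons by 4.79 ± 0.64 in P301S and 3.94 ± 0.54 in non-Tg mice. Spag9, a scaffold that links JNK kinases to kinesin-1 and dynein, was lower in neurons by -2.13 ± 0.19 in P301S and -2.19 ± 0.17 in non-Tg mice. Grip1, which couples kinesin-1 to AMPA receptors, was higher in neurons by 2.68 ± 0.41 in P301S and 3.85 ± 0.40 in non-Tg mice.

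Of 10 tested dynein and dynactin subunits outside the rule, 4 were higher and 1 lower in neurons in P301S mice, and 0 were higher and 1 lower in non-Tg mice (52.3% and 46.9% of all genes were called in either direction). The lower subunit was Capzb, the capping protein of the actin-like dynactin filament, with log2 differences of -1.93 ± 0.28 in P301S and -0.88 ± 0.25 in non-Tg mice. Of 18 tested genes of intraflagellar transport, the traffic driven by kinesin-2 and dynein-2 in cilia, 2 were higher and 5 lower in P301S neurons than in P301S astrocytes, and 1 was higher and 3 lower in non-Tg neurons than in non-Tg astrocytes, again beside 52.3% and 46.9% of all genes. Between genotypes edgeR and voom called 0 genes of these 2 lists in either cell type, and DESeq2 called 1 gene of each in astrocytes, Capzb higher and Ift80 lower in P301S, and 0 in neurons. In edgeR, 2 of 18 tested intraflagellar transport genes had an unadjusted p under 0.05 in astrocytes and 1 of 17 in neurons. The shares of all genes were 13.4% and 7.73%. Of the dynein and dynactin subunits outside the rule, 2 of 7 tested in astrocytes and 0 of 8 in neurons had an unadjusted p under 0.05.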

How the data were processed

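RNA-seq counts of 25 libraries of sorted neurons and astrocytes were used, grouped by the genotype and cell type in the labels. Per the file headers, the deposited counts are reads uniquely aligned to a gene model, and the second deposited column holds the authors' size-factor-adjusted RPKM values. That column was found to equal the counts times 1 factor per library and 1 per gene. GSNAP and the build GRCm38 are named in the submitters' processing notes. The sources used here do not give the gene models, the strand setting or the versions. Entrez IDs were matched to RefSeq symbols on GRCm38.p6, and 5479 IDs without a symbol, with 3.30% of the counts, stayed in every test. Pseudogenes and the non-coding Kif16bos were not members. No pair of libraries of a group agreed within counting noise (lowest chi-square per degree of freedom 1.84, for non-Tg neurons 4 and 7). Pairs among non-Tg neurons 1, 3 and 6 gave 2.20 to 2.48, and the other non-Tg neuron pairs 5.52 to 36.0. P301S neurons 4 and 5 gave 2.92, and the other P301S neuron pairs 4.21 to 11.3. The labels do not tell whether such closer libraries share an animal, and each was counted as 1 replicate.

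Genotype was tested within each cell type, and neurons against astrocytes and the difference of genotype effects in 1 fit of all 25 libraries, with edgeR 4.0.16 in R 4.3.3 (TMM scaling, quasi-likelihood F test, filterByExpr defaults). Calls are Benjamini-Hochberg adjusted p under 0.05 over all genes tested. The SE is the log2 change divided by the square root of F. CPM levels are TMM-scaled, and levels between genes use the RPKM. Alternatives were RLE scaling, DESeq2 1.42.0, limma 3.58.1 voom with quality weights, other filters, removal of Malat1 and mitochondrial genes, genes detected as a covariate, other library sets and leaving out each library. Leaving out P301S astrocytes 3 and 4 together was chosen after the data were seen. The test was tried on simulated data with known changes and the same dispersion for all genes and groups. That trial cannot show how the test performs where the spread differs between genes or groups. Intervals and floors of 3 counts cover counting error only, since duplicate reads of 1 molecule cannot be recognised.

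The members and gene lists were chosen with earlier results of these data known. Values in every library are given for members called or with the 2 smallest p in a genotype comparison or in the difference of genotype effects, for the 5 largest differences per direction between non-Tg neurons and astrocytes with a group mean of at least 5 CPM, and for Kif5a, Kif5b, Kif5c, Dync1h1 and Dctn1. Kif2a, Kif1b and the light chains with values in each library were added after their values were seen. Exon overlaps of 22 members were read from GENCODE M21.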

Additional observations from a re-analysis of the deposited data

Results flagged for a closer look

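In each of the 4 groups, the gap between the highest or lowest library and its nearest neighbour was compared with Dixon's 95% critical value for 18 members, 72 group comparisons in all, and 10 passed. Chance flags about 1 in 20 groups.

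4 of the 10 were non-Tg neuron 8, the library with the most counts, which also carries a sample identifier from another range than most. It had 635 CPM of Kif1a, against 139 to 344 CPM in the other non-Tg neurons. It had 120 CPM of Dctn1, against 24.7 to 45.1 CPM, and 152 CPM of Kif5a, against 50.7 to 91.3 CPM. Its Kif17 level was 20.4 CPM, against 4.27 to 9.55 CPM in the other 7.

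3 concerned single P301S astrocyte libraries. Library 4, with a low number of detected genes, had 471 CPM of Kif5b, against 78.5 to 154 CPM in the other 4. Library 3 had 92.7 CPM of Kif5a, against 8.23 to 19.5 CPM. Library 1, which held the most detected genes of its group, had 15.2 CPM of Kif17, against 0 to 2.20 CPM.

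3 concerned non-Tg astrocytes. Library 4 had 12.3 CPM of Dync1i1, against 0 to 4.01 CPM in the other 5, and 46.8 CPM of Kif7, against 9.37 to 23.0 CPM. Library 2 had 3.80 CPM of Kif26b, against 0 to 1.06 CPM.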

How the results depend on the processing

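No paired analysis was possible because the labels give no replicate numbers and do not tie libraries to animals. In P301S against non-Tg astrocytes, 66 genes and 1 member were called. Genes called were 441 with DESeq2, 124 with voom, 561 without a filter, 0 with genes detected as a covariate, 1682 in 1 fit of all 25 libraries and 42 without P301S astrocytes 3 and 4, and 27 to 136 without 1 library. Members called were 0 with the covariate, 4 in the fit of all 25, 0 without astrocytes 3 and 4, and 0 to 1 without 1 library. In neurons, 1 gene was called, against 49 with DESeq2, 41 with voom, 17 without a filter, 10 with a 1 CPM filter, 10 with the covariate, 38 without non-Tg neurons 5 and 8, and 0 to 23 without 1 library. Members stayed at 0 there in every alternative. For the difference of genotype effects, 56 genes were called, against 425 with DESeq2, 10 with voom, 12 without those 2 neurons, 266 without P301S astrocytes 3 and 4, and 9 to 522 without 1 library. Members called were 1 with DESeq2 and 0 to 1 without 1 library. Between cell types in P301S, 7420 genes and 22 members became 3413 and 9 with the covariate, and 4925 genes were called in a fit of 1 genotype. The covariate did not overlap between the P301S cell types, so its fit cannot tell detection from cell type. Without 1 library 20 to 25 members were called in P301S and 17 to 20 in non-Tg. RLE scaling moved the median of all genes by 0.19 in non-Tg and 0.13 in P301S, and voom by 0.44 in P301S between cell types and by -0.28 between astrocyte genotypes.

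Directions turned for Kifc1, which was called, and for members that were not called. Dctn1 between astrocyte genotypes was -0.035 with voom and -0.011 with the covariate, and ranged from -0.040 to 0.40 without 1 library. In neurons it was 0.27 with voom and 0.31 without those 2 neurons, and ranged from -0.24 to 0.32 without 1 library. Between cell types in P301S it was -0.078 with the covariate. Dync1h1 between non-Tg cell types was 0.084 with RLE, 0.085 with DESeq2 and 0.038 with the 1 CPM filter, and ranged from -0.20 to 0.046 without 1 library. Kif5b between astrocyte genotypes was -0.089 with the covariate. Between cell types in P301S it was 0.15 with voom, 1.002 with the covariate and 0.39 without astrocytes 3 and 4, and ranged from -0.41 to 0.47 without 1 library. Kif5c was -0.18 with the covariate in astrocytes and ranged from -0.073 to 0.099 without 1 library in neurons. Kif17 and Kifc1 between cell types in P301S were -1.14 and -0.19 with the covariate. The cause was not tested in these cases.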

Other observations

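Shares of gene families, beyond those given above, concern the Kif13 and dynactin genes. Kif13a made up a median of 38.5% of the summed RPKM of Kif13a and Kif13b in P301S neurons and 38.2% in non-Tg neurons. Its share was 77.2% in P301S astrocytes, with 70.7% as the lowest library, and 58.7% in non-Tg astrocytes. Kif13b had 20.6, 27.1, 10.8, 5.29 and 40.8 CPM in P301S astrocytes, against 29.2 to 57.6 CPM (median 40.0) in non-Tg astrocytes, and was not called between the genotypes. The dynactin subunit Dctn5 made up 5.93% to 36.5% (median 8.72%) of the dynactin RPKM in P301S astrocytes, against 14.4% to 20.2% (median 17.97%) in non-Tg astrocytes. These shares were picked after their values were seen and were not tested.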
